A study of Mus musculus with 70 samples.

Results

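The genes described here encode the protein components of the cytosolic ribosome. They were taken by symbol: every row of the count matrix that GENCODE M21 types as protein_coding and whose symbol is Rpl or Rps followed by a digit, or is Rplp0, Rplp1, Rplp2 or Rpsa, without the Rps6k kinases and without symbols that carry the pseudogene mark -ps. This gave 86 of the 52636 genes in the matrix, of which 21896 are typed protein_coding. By the Rpl or Rps of the symbol, 52 members were counted under the large and 34 under the small subunit, Rps19bp1 among the latter. The members are spread over 19 chromosomes with 4 on X. By name, 77 members are the core ribosomal proteins and 7 are paralogues of a core gene (Rpl3l, Rpl7l1, Rpl10l, Rpl22l1, Rpl36al, Rpl39l and Rps27l). The other members are the retrogene Rps27rt and Rps19bp1, whose symbol fits the rule but whose product binds a ribosomal protein and is not itself part of the ribosome.

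RNA was sequenced from monocytes of the Ly6C-high and the Ly6C-low type and from T and B cells, all sorted from the blood of young adult C57BL/6J mice. Stressed mice underwent chronic social defeat stress (CSDS), with daily defeats by an aggressive CD-1 mouse for 10 days, and were then divided by their social interaction into susceptible (SUS) and resilient (RES) mice, while control (CON) mice were not defeated. The labels name no transgene, and every library went through red cell lysis, staining for CD11b, Ly6C, Ly6G, B220 and CD90.2, sorting into Trizol and a low-input total RNA kit. There were 6 libraries for each group in each cell type, except 4 for CON Ly6C-low monocytes. SUS and RES were assigned by behaviour after the stress, so a difference between them is not a difference between assigned treatments.

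Brain is written as the source in the labels, but the design text and the methods of the study describe blood. Total counts ran from 19769835 to 67038231 per library, and 0 of 171 pairs of libraries within a group held identical counts. The sorted types carried their defining markers, except in 2 of 70 libraries that were left out. The library labelled B cells of RES mice and numbered 52 had a summed level, in counts scaled to an equal library total (CPM), of 215 CPM over the B cell markers and 2437 CPM over the T cell markers, and the library labelled T cells of RES mice and numbered 70 had 8034 CPM over the B cell and 18.2 CPM over the T cell markers. The other 68 libraries were used, which left 5 each for RES B and T cells. Natural killer cell markers (Ncr1, Klrb1c, Klrd1 and Gzma) summed to 207 to 672 CPM in CON Ly6C-low libraries. In CON mice they summed to 2.08 to 34.8 CPM in Ly6C-high and 57.5 to 99.7 CPM in T cell libraries. The part of natural killer cells in the Ly6C-low levels of ribosomal protein genes was not tested. No label ties a library to a mouse, so all libraries were treated as independent, and p-values measure the spread between libraries, which may be partly technical. Hemoglobin shares followed the accession order in part: in RES mice the second library by accession had the highest hemoglobin share in each of the 4 cell types, at 0.343%, 0.428%, 1.05% and 0.545%. In SUS mice replicate 5, also numbered by accession order, was highest in 3 of the 4 cell types, and in T cells it was not. Whether cell types were sorted from the same mice was not tested, and the comparisons between cell types and the interaction take no account of it.

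A ribosome is built from a small subunit, which reads the messenger RNA, and a large subunit, which joins the amino acids, each made of ribosomal RNA and a set of proteins that are mostly needed in equal numbers. The P stalk of the large subunit, formed by Rplp0 with Rplp1 and Rplp2, recruits the factors that drive elongation. Messenger RNAs of ribosomal proteins start with a C followed by an unbroken run of pyrimidines, the terminal oligopyrimidine motif, through which growth signalling by mTORC1 controls their translation, and dividing or activated leukocytes are known to make more ribosomes than resting ones.

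The start sites of the members are shown first because this run of pyrimidines is the sequence feature that the family is known for. RefSeq promoter entries of build GRCm38.p6 were found for 66 of the 86 members. Each line below gives 50 bases of the sense strand from 20 bases before to 30 bases after the annotated start, and the capitals mark the longest run of C and T in the window. Rplp2, Rps6, Rps27, Rpl28 and Rps18 are core genes with a run across the start, Rpl13a is a core gene with a run just inside it, Rplp0 and Rpsa are core genes whose runs lie further in, and Rps27l and Rpl22l1 are paralogues.
Rplp2: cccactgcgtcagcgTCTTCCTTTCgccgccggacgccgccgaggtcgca
Rps6: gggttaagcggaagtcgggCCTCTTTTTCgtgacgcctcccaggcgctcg
Rps27: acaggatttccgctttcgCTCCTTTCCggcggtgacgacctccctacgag
Rpl28: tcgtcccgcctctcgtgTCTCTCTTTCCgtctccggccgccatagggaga
Rps18: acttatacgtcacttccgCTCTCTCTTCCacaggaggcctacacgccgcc
Rpl13a: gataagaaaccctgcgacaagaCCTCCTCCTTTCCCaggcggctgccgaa
Rplp0: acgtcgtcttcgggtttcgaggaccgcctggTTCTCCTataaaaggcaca
Rpsa: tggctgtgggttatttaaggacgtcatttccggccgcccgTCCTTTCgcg
Rps27l: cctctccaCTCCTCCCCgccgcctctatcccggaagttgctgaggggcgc
Rpl22l1: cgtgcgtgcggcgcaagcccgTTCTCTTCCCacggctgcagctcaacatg

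These windows lie at chr7:141447631-141447680 on the plus strand (Rplp2), chr4:86857338-86857387 on the minus strand (Rps6), chr3:90213619-90213668 on the minus strand (Rps27), chr7:4792945-4792994 on the plus strand (Rpl28), chr17:33955636-33955685 on the minus strand (Rps18) and chr7:45128716-45128765 on the minus strand (Rpl13a). The window of Rplp0 is chr5:115559447-115559496 on the plus strand, that of Rpsa chr9:120127746-120127795 on the plus strand, that of Rps27l chr9:66946066-66946115 on the plus strand and that of Rpl22l1 chr3:28805488-28805537 on the plus strand. A run of at least 8 pyrimidines was present in the window of 34 members (51.5%), against 21.5% of the 27025 genes with an entry. The same search on the other strand, which finds purine runs, gave 9.09% of members and 24.7% of all genes. The letters CTTTCC on the sense strand were found in 19.7% of members and 2.83% of all genes, and on the other strand in 1.52% and 2.69%. In the promoter of 300 bases, on either strand, CGGAAG was found in 66.7% of members and 18.8% of all genes, GCCATC in 22.7% and 15.9%, and TATAA in 27.3% and 28.0%. The longest run was 21 bases, in Rpl7a. The window and the letters were chosen after the sequences had been seen, a match is not evidence of binding, and an annotated start can lie a few bases from the one used in these cells.

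The summed counts of the members made up 1.41% to 12.6% of the counts on nuclear protein-coding genes in the 68 libraries. In CON mice this share was lowest in Ly6C-low monocytes, where the 4 libraries had 1.78%, 1.44%, 1.53% and 1.41%. In CON Ly6C-high monocytes it ran from 2.60% to 2.93% with a median of 2.87%. B cells of CON mice had 5.68% to 9.41% with a median of 6.23%, and T cells 6.44% to 9.42% with a median of 8.29%. The ranges of the 2 monocyte types and of the lymphocytes did not overlap, whereas those of B and T cells did. After CSDS, the share in Ly6C-high monocytes ran from 3.72% to 5.82% with a median of 4.29% in SUS mice and from 3.27% to 4.98% with a median of 4.09% in RES mice. All 12 of these libraries lay above the 6 CON libraries. In the other 3 cell types the SUS and RES libraries overlapped the CON libraries. Bulk RNA cannot tell fewer or more cells of a type from less or more RNA per cell.

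**Figure D1:**
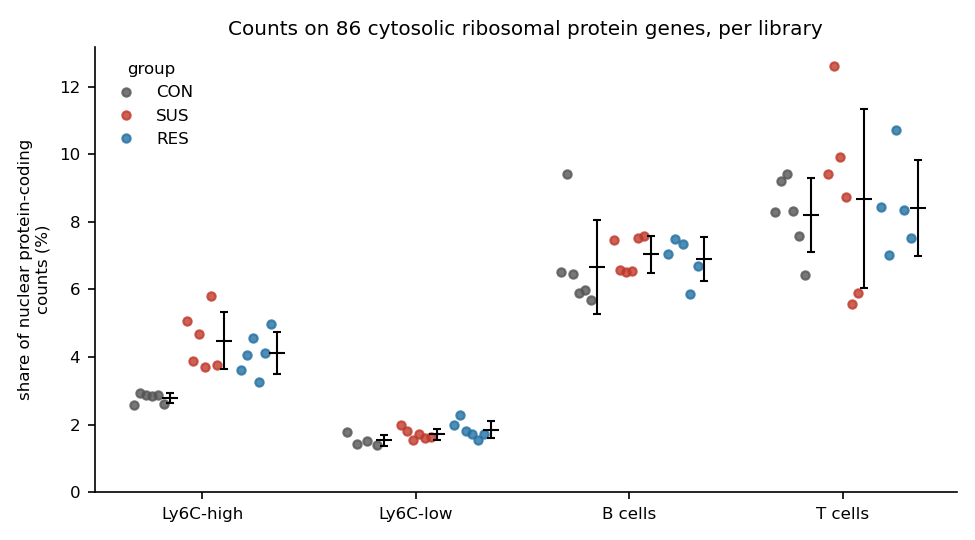
Share of nuclear protein-coding counts that fell on the 86 ribosomal protein genes (vertical axis, percent), 1 point per library, by cell type and group, with the mean and SD of each group as a bar beside its points. In Ly6C-high monocytes the CON libraries sit between 2.60% and 2.93% and every SUS and RES library above them, while CON, SUS and RES overlap in the other cell types.

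Levels of different genes were compared as CPM, normalized by TMM, per kilobase of transcript, averaged over CON libraries within each cell type and then over the 4 cell types. On this scale 75 members were at 100 or above and 8 at 1000 or above. The highest were Rplp2 at 1729, Rpl26 at 1645, Rplp1 at 1396, Rpl8 at 1314 and Rpsa at 1216. At the lower end were the paralogues Rpl36al at 2.07, Rpl3l at 0.767 and Rpl39l at 0.0716, together with Rpl10l, which had no count in any of the 68 libraries. Rpl24, a core gene of the large subunit, was at 1.54. Of the core genes 74 of 77 were at 100 or above, and these spread widely, from Rpl23a at 100 to Rplp2 at 1729. Near-identical copies were counted in rows of their own: 60 members have pseudogene rows named after them, and the summed counts of those rows were 418% of the member's own counts for Rpl23a, 126% for Rps13, 88.5% for Rps27a and 70.4% for Rpl3. The 1 such row of Rpl13a held 3.95% of its counts, and Rpl24 has 0. How the counting placed reads that match several copies is not given in the sources used here, and its part in the levels was not tested. Over all members the pseudogene rows stood at 8.44% to 9.56% of the member counts in every library.

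Cell types were compared first in CON mice. Lymphocytes had higher levels of nearly all ribosomal protein genes than monocytes. Of 85 members tested, 80 were higher in B and T cells than in the 2 monocyte types (edgeR quasi-likelihood test, adjusted p under 0.05), 0 were lower, and 22.7% of all genes tested were called higher. The median log2 fold change of the members was 1.64, against 0.01 over all genes, with 1.51 for the large and 1.72 for the small subunit. In 72 members the 12 lymphocyte libraries all lay above the 10 monocyte libraries, a pattern held by 4.1% of all genes. In CON mice 7 red cell genes summed to 1336 to 7887 CPM in B and 889 to 2836 CPM in T cells. The sums were 343 to 1216 CPM in Ly6C-high and 295 to 1260 CPM in Ly6C-low monocytes. With the mean red cell level as a covariate 78 members were higher, with a median of 1.40, as were 4800 of 24248 genes. The part of red cell RNA was not tested.

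Rpl12, part of the base of the P stalk, had the largest difference. It was at 81.2 to 107 CPM (median 98.1) in Ly6C-high monocytes, at 69.1, 60.4, 65.7 and 53.5 CPM in the 4 Ly6C-low libraries, at 364 to 635 CPM with a median of 384 in B cells and at 474 to 711 CPM with a median of 613 in T cells. Every lymphocyte library was above every monocyte library, and the log2 fold change was 2.73 ± 0.13 (SE, adjusted p = 1.86e-28). Rplp1, which recruits elongation factors at the tip of the stalk, differed by 2.42 ± 0.18, Rps20 by 2.46 ± 0.15 and the retrogene Rps27rt by 2.32 ± 0.16. Smaller differences that still passed were seen for Rpl10, which joins the large subunit late in its assembly (0.38 ± 0.11, adjusted p = 0.00246), for Rpl7l1 (0.28 ± 0.09, adjusted p = 0.00996), for Rps19bp1 (0.81 ± 0.23) and for Rps27a, made as a fusion with ubiquitin (0.93 ± 0.13). Rpl10 was at 403 to 538 CPM in Ly6C-high monocytes, 332 to 529 CPM in B cells and 352 to 452 CPM in T cells, and at 205 to 239 CPM in Ly6C-low monocytes. Its lymphocyte libraries thus overlapped the Ly6C-high libraries, and all lay above the Ly6C-low ones. Rps27l, a paralogue of Rps27 that p53 induces, did not pass (-0.28 ± 0.24, adjusted p = 0.365), nor did Rpl24, Rpl36al, Rpl3l and Rpl39l, all of them at very low levels.

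**Figure D2:**
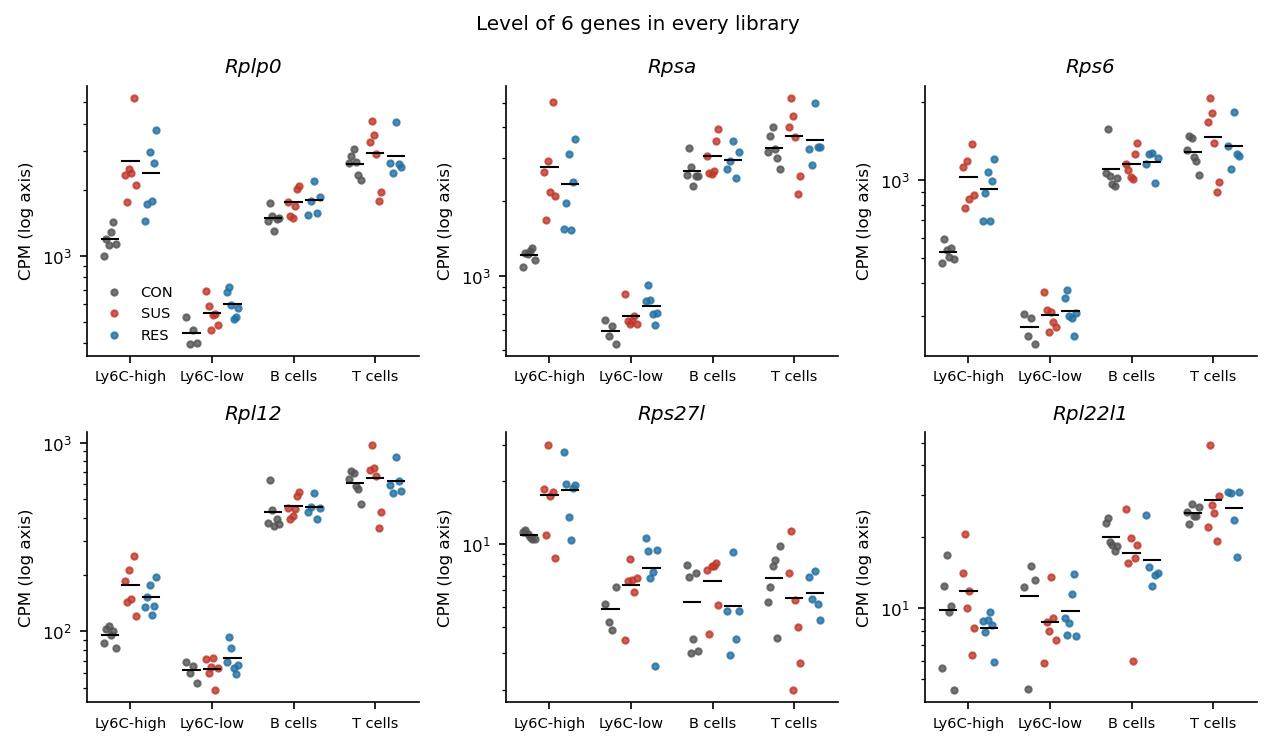
Level of 6 genes (CPM, log axis) in each library, by cell type and group, with a bar at the mean of each group. The core genes Rplp0, Rpsa, Rps6 and Rpl12 are lowest in Ly6C-low monocytes, Rpl12 stands apart in lymphocytes, and the paralogue Rps27l is highest in Ly6C-high monocytes while Rpl22l1 is highest in T cells.

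Between the monocyte types, Ly6C-high cells, the classical monocytes that leave the marrow and enter inflamed tissue, had the higher levels. Of 85 members 76 were higher in Ly6C-high than in Ly6C-low monocytes and 0 lower, where 7.96% of all genes were called higher, and the median log2 fold change was 0.96 against -0.01 over all genes. In 71 members the 6 Ly6C-high libraries all lay above the 4 Ly6C-low libraries, as they did in 8.22% of all genes. Rps9, a small subunit protein, was at 693 to 943 CPM with a median of 801 in Ly6C-high and at 326, 262, 285 and 251 CPM in Ly6C-low monocytes. The groups were far apart, with a log2 fold change of 1.53 ± 0.18 (adjusted p = 4.93e-10). Rpl22 (1.52 ± 0.20), Rpl32 (1.44 ± 0.20) and Rpl41, the smallest ribosomal protein (1.43 ± 0.22), followed. Rpl12 (0.62 ± 0.18), Rps27 (0.64 ± 0.22) and Rps27rt (0.64 ± 0.23) were among the members with the smallest differences that passed. Rps19, mutated in Diamond-Blackfan anaemia, missed the threshold (0.53 ± 0.20, adjusted p = 0.0508).

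B and T cells of CON mice differed in few members. Only 9 of 85 passed in either direction, whereas 28.9% of all genes were called, and the median log2 fold change of B minus T cells was -0.09 for the members and -0.06 for all genes. Rplp0, the body of the P stalk, was lower in B cells, at 1302 to 1740 CPM with a median of 1472 against 2203 to 3071 CPM with a median of 2652 in T cells. The B and T cell libraries did not overlap, and the log2 fold change was -0.82 ± 0.18 (adjusted p = 0.000269). Rplp1 (-0.80 ± 0.22), Rpl5, which binds the small RNA of the large subunit (-0.73 ± 0.13), Rpl12 (-0.51 ± 0.16), Rpl23 (-0.48 ± 0.14), Rpl3 (-0.48 ± 0.13) and Rpl4 (-0.37 ± 0.12) were also lower in B cells. The 2 members higher in B cells were no core genes: Rpl7l1 (0.68 ± 0.12) and Rps19bp1 (0.86 ± 0.30). Without 1 B cell library of CON mice, the replicate 2 with the highest share of ribosomal protein counts, 19 members passed.

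**Figure D3:**
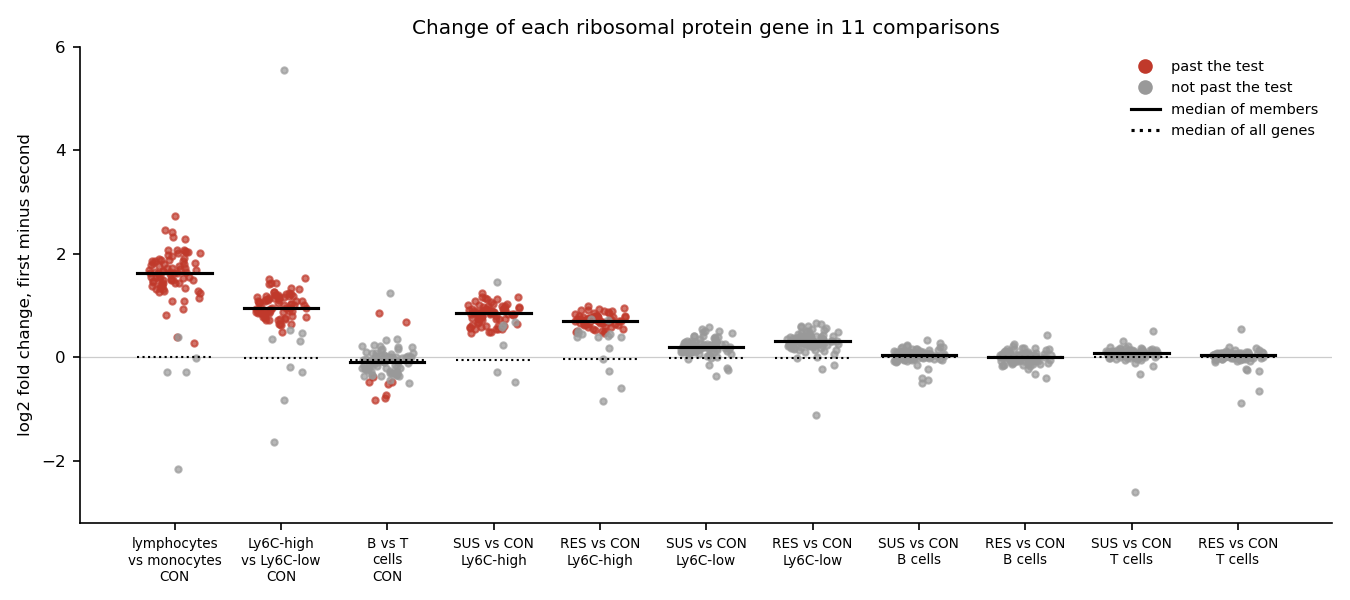
Log2 fold change (first group minus second) of each ribosomal protein gene in 11 comparisons, 1 point per gene, red where the adjusted p was under 0.05 and grey where it was not, with a solid line at the median of the members and a dotted line at the median of all genes. Members lie above all genes in the first 2 comparisons and in SUS vs. CON and RES vs. CON Ly6C-high monocytes, and near them in B cells and T cells, and the single grey points far from 0 are members at very low counts, such as Rpl39l, Rpl3l and Rpl24.

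Stress was compared within each cell type. Ribosomal protein mRNA was higher in Ly6C-high monocytes of SUS mice than in those of CON mice. Of 84 members tested in SUS vs. CON mice, 77 rose and 0 fell, and 8.78% of all genes were called higher. The median log2 fold change was 0.85 for the members and -0.05 for all genes, with 0.83 in the large and 0.87 in the small subunit, where 45 of 50 and 32 of 34 members rose. The 6 SUS libraries lay above the 6 CON libraries in 68 members, and 4.68% of all genes had that pattern. With the additional requirement of a log2 fold change above 1, which the study used, 12 members were called, and 2.28% of all genes. DESeq2 called 77 members and 9.69% of all genes higher, and 76 members rose when the SUS library with the highest share (replicate 5) was left out.

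The P stalk and Rpsa, the laminin-receptor protein of the small subunit, were among the genes that rose most. Rplp0 had 1000, 1189, 1116, 1281, 1423 and 1134 CPM in the CON libraries, with a median of 1161, and 1764 to 5221 CPM with a median of 2355 in SUS mice. No SUS library reached down into the CON range, and the highest stood far from the other 5, at 5221 against at most 2478. The log2 fold change was 1.17 ± 0.24 (adjusted p = 0.00287). Its partners at the tip of the stalk were at lower levels and rose by similar amounts. Rplp1 ran from 228 to 362 CPM with a median of 330 in CON and from 463 to 1402 CPM with a median of 672 in SUS mice (1.23 ± 0.23, adjusted p = 0.00183). Rplp2 ran from 353 to 531 CPM with a median of 443 in CON and from 570 to 1645 CPM with a median of 884 in SUS mice (1.06 ± 0.20, adjusted p = 0.0018). Rpsa ran from 1083 to 1297 CPM with a median of 1232 in CON and from 1678 to 5077 CPM with a median of 2406 in SUS mice (1.17 ± 0.23, adjusted p = 0.00231). In each of these 4 genes replicate 5 was the highest SUS library, and the other 5 also lay above every CON library.

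In the small subunit, Rps6, the protein that S6 kinase phosphorylates on growth signals, ran from 479 to 595 CPM with a median of 521 in CON and from 781 to 1377 CPM with a median of 998 in SUS mice. The groups did not overlap, and the log2 fold change was 0.94 ± 0.15 (adjusted p = 0.00118). Rps2 rose by 1.14 ± 0.23, Rps14, whose loss underlies the anaemia of a deletion syndrome, by 1.03 ± 0.18, Rps19 by 0.93 ± 0.18 and Rps3 by 0.84 ± 0.17. The smallest rise that passed was that of Rps3a1 (0.47 ± 0.13, adjusted p = 0.0208).

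In the large subunit, Rpl37a went from 37.5 to 106 CPM with a median of 82.3 in CON to 134 to 267 CPM with a median of 154 in SUS mice (1.13 ± 0.21, adjusted p = 0.00201). Rpl10 rose by 0.73 ± 0.14. Rpl5 and Rpl11, which together with ribosomal RNA restrain Mdm2 when assembly is disturbed, rose by 0.50 ± 0.12 and 0.72 ± 0.16, and Rpl23 by 0.54 ± 0.12. Rpl5 had 424 to 536 CPM in CON and 593 to 895 CPM in SUS mice, so that a smaller rise than that of the stalk was still free of overlap. Rpl13a, known for its part in a complex that silences inflammatory mRNAs in monocytes, was at 3.82 to 13.9 CPM in CON and 11.2 to 19.5 CPM in SUS mice and did not pass (0.69 ± 0.27, adjusted p = 0.0957). The other members tested that did not pass were Rpl24, Rpl36al, Rpl3l, Rpl22l1, Rps27l and Rps19bp1, while Rpl10l and Rpl39l were too low to be tested.

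Ribosomal protein mRNA was also higher in Ly6C-high monocytes of RES mice than in those of CON mice. This comparison used the same 6 CON libraries as SUS vs. CON, so the 2 sets of values share whatever is particular to those libraries. Of 84 members 69 rose and 0 fell, against 3.71% of all genes called higher, and the median log2 fold change was 0.70 for the members and -0.03 for all genes. In 55 members the RES libraries lay wholly above the CON libraries, a pattern held by 2.85% of all genes. Rplp0 ran from 1442 to 3729 CPM with a median of 2221 in RES mice (0.98 ± 0.24, adjusted p = 0.0233), Rpsa from 1534 to 3590 CPM with a median of 2187 (0.95 ± 0.23, adjusted p = 0.0235), Rps14 from 356 to 631 CPM with a median of 489 (0.93 ± 0.18, adjusted p = 0.0138) and Rplp1 from 389 to 881 CPM with a median of 583 (0.91 ± 0.23, adjusted p = 0.027). All 6 RES libraries were above the highest CON library in each of these 4 genes. The smallest rises that passed were those of Rpl9 (0.47 ± 0.14), Rpl17 (0.50 ± 0.13), Rpl23 (0.51 ± 0.12) and Rpl30 (0.51 ± 0.12). Fewer members passed when certain libraries were left out: 24 without CON replicate 1, 37 without CON replicate 3, 20 without RES replicate 3, 42 without RES replicate 5 and 17 without RES replicate 6.

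Between SUS and RES mice, no member of Ly6C-high monocytes passed edgeR's or DESeq2's test, none had an unadjusted p under 0.05 in either, and 0.0059% of all genes were called by edgeR. The median log2 fold change was 0.14, with 81 of 84 members on the higher side in SUS mice. Rpl37a (0.39 ± 0.21) and Rps2 (0.40 ± 0.23) had the smallest p-values, each with an adjusted p of 0.999. The ranges of Rpl37a, 134 to 267 CPM in SUS and 93.7 to 171 CPM in RES mice, overlapped.

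Other RNAs moved in the same libraries. The summed level of 7 red cell genes, among them the globins, was 343 to 1216 CPM in CON, 1098 to 8996 CPM in SUS and 1077 to 4351 CPM in RES Ly6C-high monocytes, and all 7 passed the test in SUS vs. CON mice and 2 in RES vs. CON mice. The SUS library with the highest ribosomal protein share, 5.82%, was also the one with 8996 CPM of red cell RNA. With the mean red cell level added to the fit as a covariate, 0 members passed in SUS vs. CON and 0 in RES vs. CON mice. In that fit the median log2 fold change of the members was 0.39 and 0.33, 43 and 31 members had an unadjusted p under 0.05, as did 6.39% and 4.89% of all genes, and 1 and 0 of all genes passed. The lowest SUS and RES libraries had about the red cell level of the highest CON library, and in this fit red cell level and group cannot be told apart. In B cells and T cells the red cell genes had median log2 fold changes of 1.01 and 0.84 in SUS vs. CON mice, with 0 of 7 past the test, beside medians of 0.04 and 0.09 for the ribosomal protein genes. With the covariate these medians of the ribosomal protein genes became -0.17 in B cells, with 11 of 84 members above 0, and 0.02 in T cells. In RES vs. CON mice they were -0.17 and -0.01 with the covariate, and 0 members passed in any of these fits. In Ly6C-low monocytes the red cell sums were 295 to 1260 CPM in CON, 860 to 2699 CPM in SUS and 878 to 3921 CPM in RES mice. There the members had medians of 0.21 in SUS and 0.31 in RES vs. CON mice, and 0.12 and 0.23 with the covariate. The causes of these changes were not tested.

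**Figure D4:**
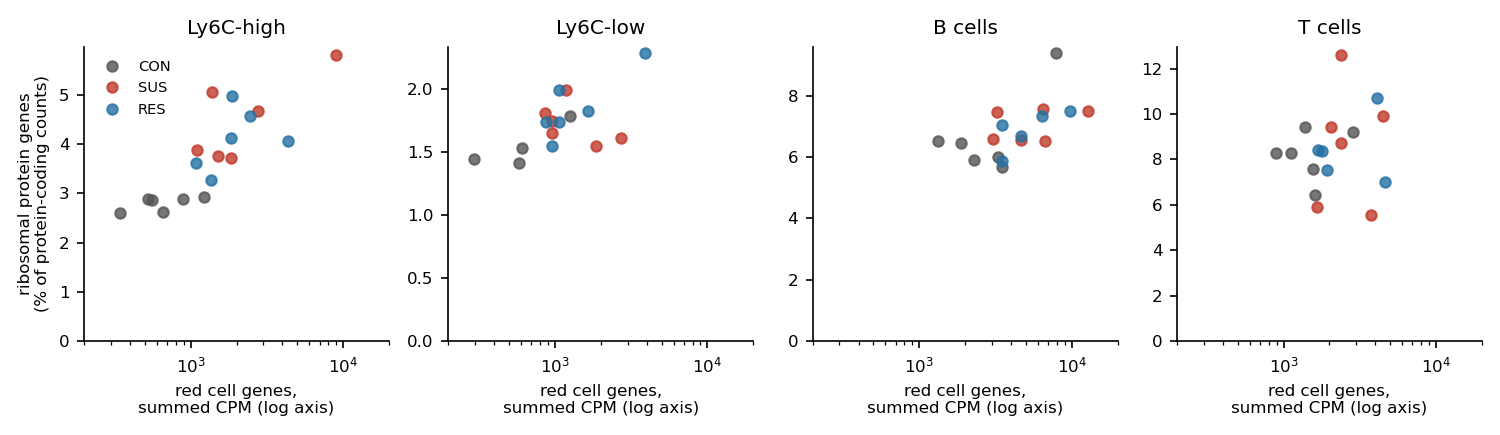
Share of nuclear protein-coding counts on ribosomal protein genes (vertical axis, percent) against the summed level of 7 red cell genes (horizontal axis, CPM, log scale), 1 point per library, with a panel for each cell type and its own vertical scale, coloured by group. In Ly6C-high monocytes the CON libraries lie below every SUS and RES library and reach 1216 CPM, past the lowest SUS library at 1098 CPM and the lowest RES library at 1077 CPM, and the SUS library at 8996 CPM has the highest share, 5.82%.

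Ly6C-high markers were themselves higher in SUS than in CON mice, with summed levels of 6490 to 9568 against 4033 to 5408 CPM, and 4 of 5 passed, among them Mmp8 (1.49 ± 0.20) and Chil3 (1.31 ± 0.19). Platelet genes summed to 5.86 to 51.3 CPM in SUS and 6.15 to 10.4 CPM in CON mice, and 1 of 6 passed (Ppbp). Neutrophil markers summed to 509 to 1049 CPM in SUS and 359 to 623 CPM in CON mice, and none of the B cell, T cell, natural killer cell or neutrophil markers passed. Ribosomal RNA rows took 0.739% to 8.03% of all counts in CON, 1.29% to 18.8% in SUS and 1.60% to 16.2% in RES Ly6C-high monocytes. The part of other cells and of ribosomal RNA in the rise of the ribosomal protein genes was not tested.

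Transcript length moved with the changes as well. Members are short, with a median transcript of 705 bases, against 2285 bases for other nuclear protein-coding genes. In SUS vs. CON Ly6C-high monocytes the median log2 fold change of other genes was 0.63 for transcripts of up to 500 bases, 0.65 up to 750 bases and -0.28 above 5000 bases, and that of the members was 0.88 and 0.85 in the first 2 classes. In RES vs. CON mice other genes had medians of 0.40, 0.46 and -0.18, and the members 0.72 and 0.73. Other short genes thus also lay above 0, and the median of the members lay above theirs in each class of up to 1000 bases. Of other genes in the first 2 classes, 25.8% and 31.3% were called higher in SUS vs. CON mice. In Ly6C-high vs. Ly6C-low monocytes of CON mice these classes had medians of 0.58 and 0.27, with 17.9% and 14.4% called higher. The members there had 1.07 and 1.03. In lymphocytes vs. monocytes other genes had 0.40 and 0.21, and the members 1.71 and 1.59. With a correction for transcript length and GC content in each library, chosen after the data had been seen, 56 members rose in SUS and 50 in RES mice, with medians of 0.43 and 0.42, and 8.11% and 4.02% of all genes were called higher. RNA integrity values of the libraries were not used here, and the part of RNA quality was not tested.

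**Figure D5:**
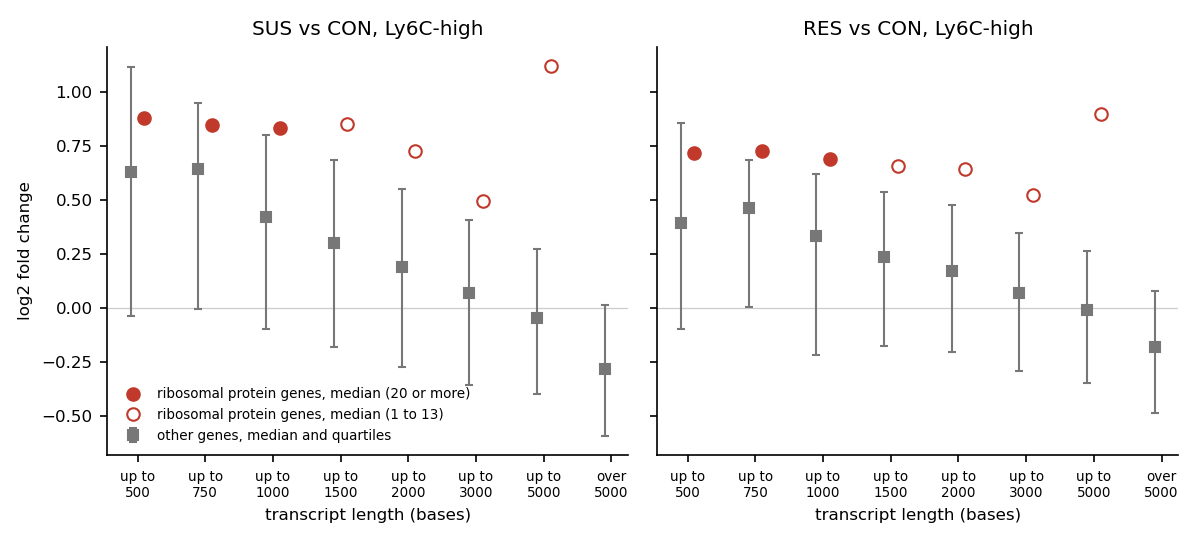
Median log2 fold change (vertical axis) in SUS vs. CON and RES vs. CON Ly6C-high monocytes by class of transcript length (horizontal axis, bases), for ribosomal protein genes (circles, open where a class holds few members) and for other nuclear protein-coding genes (squares, with bars from the lower to the upper quartile). Other genes go from 0.63 in the shortest to -0.28 in the longest class in SUS mice, and the ribosomal protein genes of up to 500 bases stand at 0.88.

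The rise in SUS mice differed between cell types. In a fit over all 12 groups, the SUS vs. CON change of Ly6C-high monocytes exceeded the mean change of the other 3 cell types in 70 of 85 members, and was smaller in 0, where 4.84% of all genes were called higher. The median difference was 0.72 on the log2 scale for the members and -0.07 for all genes. Rpl37a (1.03 ± 0.31), Rplp1 (1.01 ± 0.25) and Rpsa (1.01 ± 0.21) were among those that differed most, and Rpl7l1 (0.47 ± 0.14), Rpl5 (0.47 ± 0.15), Rpl3 (0.49 ± 0.15) and Rpl21 (0.53 ± 0.16) least among those that passed. With the red cell covariate 41 members passed, with a median of 0.58, and 2.59% of all genes were called higher. That fit used a common slope on red cell level for all cell types, unlike the fit within Ly6C-high monocytes, where 0 members passed. It cannot tell red cell level and group apart in Ly6C-high monocytes either.

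In Ly6C-low monocytes, which patrol the vessel wall, no member passed edgeR's test. In SUS vs. CON mice 0.241% of all genes were called, the median log2 fold change of the members was 0.21, and 77 of 84 were on the higher side. An unadjusted p under 0.05 was found for 23 members and 9.51% of all genes, and DESeq2 called 1 member and 1.04% of all genes. In RES vs. CON mice 0.0256% of all genes were called, the median was 0.31, and 80 members were on the higher side. Here 52 members and 9.67% of all genes had an unadjusted p under 0.05, and DESeq2 called 9 members and 0.717% of all genes. In SUS vs. RES mice 0% of genes were called, the median was -0.10 and 4 members and 3.79% of all genes had an unadjusted p under 0.05, and DESeq2 called 0 members. Rpl22, whose partner Rpl22l1 is described below, had 114, 84.9, 85.5 and 99.2 CPM in the CON libraries, 113 to 155 CPM with a median of 121 in SUS and 113 to 199 CPM with a median of 141 in RES mice. Its RES vs. CON change was 0.59 ± 0.13 (adjusted p = 0.082), with overlap at the highest CON and the lowest RES library. Rplp0 had 525, 397, 457 and 398 CPM in CON, 457 to 690 CPM in SUS and 516 to 719 CPM in RES mice, so that the stalk gene that changed most in Ly6C-high monocytes of RES mice moved by 0.41 ± 0.11 here (adjusted p = 0.154). The smallest p-values in SUS vs. CON mice were those of Rpl29 (0.48 ± 0.13, adjusted p = 0.117) and Rps23 (0.41 ± 0.11, adjusted p = 0.125), and in SUS vs. RES mice those of Rpl13 and Rpl3 (-0.28 ± 0.11 and -0.20 ± 0.08, adjusted p = 0.999968 for each).

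In B cells, no member passed, where 0.00568% of all genes were called in SUS vs. CON, 0% in RES vs. CON and 0% in SUS vs. RES mice. DESeq2 called 0 members in each, and 2, 1 and 0 had an unadjusted p under 0.05 in edgeR, which held for 3.42% of all genes in SUS vs. CON and 3.18% in RES vs. CON mice. Rplp0 was at 1302 to 1740 CPM with a median of 1472 in CON, at 1492 to 2076 CPM with a median of 1722 in SUS and at 1536, 1777, 2200, 1560 and 1855 CPM in RES mice. The ranges overlapped, and the SUS vs. CON log2 fold change was 0.25 ± 0.11 (adjusted p = 0.999).

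In T cells no member passed either, with 0.0424% of all genes called in SUS vs. CON, 0% in RES vs. CON and 0% in SUS vs. RES mice, and 0 members called by edgeR or DESeq2 or under an unadjusted p of 0.05 in edgeR. Rplp0 ran from 1769 to 4114 CPM with a median of 3105 in SUS mice and had 2656, 2372, 4069, 2611 and 2540 CPM in RES mice, beside 2203 to 3071 CPM in CON mice. SUS T cells varied most of all groups, from 5.56% to 12.6% in the share of ribosomal protein counts. The SUS vs. CON change of Rplp0 was 0.16 ± 0.19 in T cells, a standard error larger than the 0.11 of B cells.

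Paralogues replace a core protein in part of the ribosomes of some tissues, and most were minor here. Rpl10l, the testis copy of Rpl10, was at 0 counts in every library, and Rpl39l was at or under 0.781% of Rpl39 in CON libraries. Rps27l was 8.95% to 11.8% of Rps27 in Ly6C-high monocytes of CON mice and 0.698% to 1.89% in B cells, with levels of 10.5 to 11.7 CPM and 3.00 to 7.96 CPM. It was higher in Ly6C-high than in Ly6C-low monocytes (1.18 ± 0.37, adjusted p = 0.0193), while Rps27 was far higher in lymphocytes (2.28 ± 0.16), so the 2 genes did not follow the same order across cell types. Rps27rt, an intronless copy, stood at 40.7% to 50.8% of Rps27 in Ly6C-high monocytes and 44.2% to 47.6% in B cells, and how reads that match both genes were counted is not given in the sources used here.

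Rpl22l1 took its largest share of Rpl22 in Ly6C-low monocytes, with 5.35% to 17.7% in CON libraries against 1.76% to 6.52% in Ly6C-high monocytes. Its own level was alike in both, at 12.3, 4.55, 15.1 and 13.1 CPM in Ly6C-low and 4.51 to 16.7 CPM in Ly6C-high monocytes (-0.19 ± 0.29, adjusted p = 0.767), and it was Rpl22 that differed. Rpl7l1, which takes part in assembly of the large subunit, was 14.3% to 16.4% of Rpl7 in Ly6C-low monocytes, 7.49% to 12.5% in Ly6C-high monocytes and 4.21% to 5.44% in T cells of CON mice. Its level was higher in B than in T cells, at 77.6 to 95.5 against 45.0 to 61.0 CPM without overlap. In SUS vs. CON Ly6C-high monocytes Rpl7l1 rose by 0.50 ± 0.14 (adjusted p = 0.0234), Rpl22l1 had 0.24 ± 0.31 (adjusted p = 0.675) and Rps27l 0.59 ± 0.26 (adjusted p = 0.135).

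A few ribosomal proteins have symbols outside the rule. Fau, a fusion of a ubiquitin-like protein with a small subunit protein, ran from 370 to 524 CPM with a median of 433 in CON and from 600 to 1201 CPM with a median of 789 in SUS Ly6C-high monocytes (0.89 ± 0.16, adjusted p = 0.00145). Rack1, a scaffold on the small subunit, ran from 477 to 654 CPM with a median of 583 in CON and from 760 to 2029 CPM with a median of 990 in SUS mice (0.94 ± 0.20, adjusted p = 0.0045). Neither gene had an overlap between the groups. In RES mice they rose by 0.74 ± 0.16 and 0.85 ± 0.20.

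Translation factors and other genes whose transcripts start with pyrimidines rose in part with the ribosomal proteins. Of 20 listed, 13 rose in SUS and 12 in RES vs. CON Ly6C-high monocytes and 0 fell, led in SUS mice by Eif3k, a subunit of the initiation factor that binds the small subunit (0.98 ± 0.18), and by Eef2, which moves the ribosome along the mRNA (0.79 ± 0.19). Npm1, a nucleolar chaperone on the same list, stood at -0.02 ± 0.16 (adjusted p = 0.944). In CON mice 19 of the 20 were higher in lymphocytes than in monocytes, with Eef1g at 2.02 ± 0.12 and Eef1b2 at 1.57 ± 0.12, and 16 were higher in Ly6C-high than in Ly6C-low monocytes, with Eif3f at 1.26 ± 0.17. Between B and T cells 2 were higher and 8 lower in B cells, with Npm1 at -1.02 ± 0.15 and Nap1l1 at 1.17 ± 0.13. Of all genes, 8.78% were called higher in SUS and 3.71% in RES vs. CON Ly6C-high monocytes. The shares of all genes were 22.7% higher in lymphocytes, 7.96% higher in Ly6C-high monocytes and 28.9% in either direction between B and T cells.

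Ribosome assembly factors did not follow the ribosomal proteins in every comparison. Of 30, 27 were higher and 2 lower in lymphocytes than in monocytes, where 22.7% of all genes were called higher. Yet 2 were higher and 5 lower in Ly6C-high than in Ly6C-low monocytes, where 7.96% of all genes were called higher and 2165 of 24248 lower. Nop56, a core protein of the particles that methylate ribosomal RNA, was lower by -0.99 ± 0.12 while Fbl, the methylase of those particles, was higher by 0.52 ± 0.18. In SUS vs. CON Ly6C-high monocytes 4 of 30 rose, among them Nhp2, a protein of the pseudouridylation particles (1.28 ± 0.25, adjusted p = 0.0021), and Rcl1, which acts in cleavage of the precursor RNA (1.18 ± 0.30, adjusted p = 0.0119), and the median was 0.19. In RES mice 1 rose, Nhp2 (1.25 ± 0.25), and 1 fell, Gnl3, a nucleolar GTPase (-1.10 ± 0.31, adjusted p = 0.0401). Of all genes, 8.78% were called higher in SUS and 3.71% in RES vs. CON mice, and 213 of 16955 lower in RES mice.

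Among 14 genes of growth signalling to ribosomes, 1 rose in SUS vs. CON Ly6C-high monocytes, Eif4ebp1, the mTORC1 target that blocks cap binding (0.92 ± 0.24, adjusted p = 0.0143), and 0 passed in RES mice. The shares of all genes called higher were 8.78% in SUS and 3.71% in RES vs. CON mice, so the 1 of 14 is near the share over all genes. Myc, which drives transcription of ribosomal genes, was higher in lymphocytes than in monocytes (2.51 ± 0.26) and had -0.81 ± 0.51 in SUS Ly6C-high monocytes (adjusted p = 0.325). Mitochondrial ribosomal proteins, which form a separate ribosome, rose in 20 of 77 cases in SUS and 5 of 77 in RES vs. CON Ly6C-high monocytes, with medians of 0.61 and 0.37, beside the 8.78% and 3.71% of all genes. Of nuclear protein-coding genes outside the members, with transcripts of up to 500 bases, 25.8% were called higher in SUS and 9.85% in RES mice. From there up to 750 bases the shares were 31.3% and 11.8%. The part of transcript length in the mitochondrial list was not tested. Among the mitochondrial ribosomal proteins Mrpl52 (1.55 ± 0.30) and Mrpl23 (1.35 ± 0.29) led in SUS mice, above each of the core cytosolic members. In lymphocytes against monocytes of CON mice 42 were higher and 3 lower, where 22.7% of all genes were called higher.

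The size of the change was then set beside the start-site feature. Among core genes with a promoter entry, the 32 with a pyrimidine run of at least 8 bases had a median log2 fold change of 0.84 in SUS vs. CON Ly6C-high monocytes and the 25 without such a run 0.88. The corresponding medians were 0.69 and 0.73 in RES vs. CON mice, 1.61 and 1.64 in lymphocytes against monocytes, and 1.07 and 0.94 in Ly6C-high against Ly6C-low monocytes. Rplp0 and Rpsa, printed above with runs of 7 bases that begin after the start, were among the members that rose most, and Rps6 and Rplp2, with runs of 10 bases at the start, rose by similar amounts.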

How the data were processed

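The authors deposited raw read counts per gene, 1 column per library. Per the submitters' processing notes, HISAT2, HTSeq, DESeq2 and build mm10 were used, and the study's methods name an Ensembl annotation for the counting. The strand setting and the handling of reads with several matches are not given in the sources used here. Columns of the count matrix were mapped to libraries by name, and 0 sample columns were unused. Libraries 52 and 70, whose markers went against their labels, were left out.

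Gene types and transcript lengths came from GENCODE M21, with the shortest transcript of the best principal class. Counts were fitted in R 4.3.3 with edgeR 4.0.16 (filterByExpr, TMM normalization, robust quasi-likelihood F test), with limma 3.58.1 as its base, over the 3 groups of a cell type for CON, SUS and RES and over all 12 groups for cell types and the interaction. P-values were adjusted over all genes tested by Benjamini-Hochberg, with a threshold of 0.05. Standard errors are the absolute log2 fold change over the square root of F. CPM are TMM-normalized. Red cell RNA entered a fit as the mean log2 CPM of the list with a pseudocount of 0.5. Alternatives were DESeq2 1.42.0, its size factors, normalization without the members, other count filters, the study's fold threshold, addition of pseudogene counts, the 2 left-out libraries kept, 2-group fits, covariates, a length and GC offset, and each library left out in turn. The fits were also run on simulated data, with counts drawn independently for each gene and library. That simulation held no shared effect of a mouse, no added red cell RNA and no genes that move together, and says nothing about these.

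Genes named are the highest and lowest members by level, the paralogues, the members with the largest and smallest changes past the test in each comparison (or the smallest p-values where none passed), a fixed list of well-known members, and the largest changes of the other lists. Npm1, Myc, Rpl22 and Rplp0 in some comparisons, Nop56 and Fbl side by side, and Mmp8 and Chil3 were picked after their values had been seen. The members and lists were chosen with earlier results of these data known. Results of the authors' own comparisons were not used. Values of some genes that the naming rule selects are not reported here.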

Additional observations from a re-analysis of the deposited data

Results flagged for a closer look

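Within groups of 4 to 6 libraries, 108 sets of values were examined for a highest or lowest library that stood far from the rest. Of these, 13 were past Dixon's 95% limit, where chance gives about 1 in 20 independent sets. The sets were the member share and 8 members in the same libraries, so they are not independent and 13 cannot be judged against that rate. Replicate 5 of SUS Ly6C-high monocytes was far above the other 5 libraries for Rplp0 (5221 CPM), Rplp1 (1402 CPM) and Rpsa (5077 CPM), and it also held the most red cell RNA (8996 CPM) and platelet RNA (51.3 CPM) of its group. Without it 76 members still rose in SUS vs. CON mice.

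Replicate 2 of CON B cells was far above the others in the share of ribosomal protein counts (9.41%) and in Rpl12 (635 CPM), Rplp1 (1156 CPM) and Rps6 (1578 CPM), with 7887 CPM of red cell RNA and 18.4% mitochondrial counts. Without it 19 members passed between B and T cells, instead of 9.

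Replicate 3 of RES T cells was far above the others in Rpl12 (835 CPM), Rplp0 (4069 CPM) and Rpsa (4989 CPM), and replicate 1 of SUS Ly6C-low monocytes in Rpsa (844 CPM). Rpl22l1 was far above the rest in replicate 1 of RES B cells (24.7 CPM) and in replicate 2 of SUS T cells (48.9 CPM). The SUS vs. CON change differed between Ly6C-high monocytes and the mean of the other cell types in 70 members, by the interaction test.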

How the results depend on the processing

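Of 165 alternatives over 16 comparisons, 151 left the count of members past the test equal or within 1.5 times, as did 286 of 292 fits without 1 library. The rule did not look at direction, and a count that stayed at 0 was taken as the same. The main count was 0 in every stress comparison of Ly6C-low, B and T cells and in SUS vs. RES Ly6C-high monocytes. These totals therefore say little about the comparisons in which members passed. With an absolute log2 fold change above 1 also required, the counts became 0 for B vs. T cells, 40 for Ly6C-high vs. Ly6C-low, 12 for SUS and 0 for RES vs. CON Ly6C-high monocytes, and 5 for the interaction. With the red cell covariate they became 19 for B vs. T cells, 0 for SUS and 0 for RES vs. CON Ly6C-high monocytes and 41 for the interaction. For B vs. T cells, at least 10 counts in every library gave 14, and the mean over CON, SUS and RES gave 31. In Ly6C-low monocytes DESeq2 gave 1 in SUS and 9 in RES vs. CON mice, and no low-count filter gave 1 in RES vs. CON mice. The causes of the DESeq2 and filter differences were not tested. Without 1 library the counts ran from 8 to 19 for B vs. T cells (19 without CON B cell replicate 2), 70 to 77 for Ly6C-high vs. Ly6C-low, 80 to 80 for lymphocytes vs. monocytes, 74 to 78 for SUS and 17 to 76 for RES vs. CON Ly6C-high monocytes, 57 to 74 for the interaction and 0 to 0 elsewhere. Over all genes, SUS vs. CON Ly6C-high monocytes had 1488 higher and 651 lower, and with DESeq2's size factors in edgeR 1224 and 846, while RES vs. CON had 842 in either direction, 1544 with DESeq2 and 1646 in the 2-group fit. DESeq2 moved the median of all genes in the interaction from -0.07 to -0.17, with 63 members past the test. Members lower in the first group appeared where cell types were compared over CON, SUS and RES, with 2 for lymphocytes vs. monocytes and 1 for Ly6C-high vs. Ly6C-low. The length and GC offset, and the red cell covariate for cell types and the interaction, were chosen after seeing the data. No paired analysis was possible because the labels give each library its own number and name no mouse, so replicate numbers follow accession order only. The spread shared by libraries of 1 mouse, if any, was not modelled. Rpl24, Rpl36al, Rpl3l and Rpl39l rest on few counts, so their values are imprecise.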
